A study of Mus musculus with 4 samples.

Results

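The genes described here are those of the DNA methyltransferases and of the proteins that target, support or block them in mouse embryonic stem cells (mESC). The 9 genes, Dnmt1, Dnmt3a, Dnmt3b, Dnmt3l, Uhrf1, Uhrf2, Dppa3, Usp7 and Zfp57, were chosen by symbol from the 25239 symbols of the deposited count tables. All of them were found and all passed the filter on low counts, which left 14525 genes for testing. RNA with poly(A) tails was sequenced from cells with the genotype Ogt fl/fl. The product of Ogt, O-GlcNAc transferase, attaches N-acetylglucosamine to serine and threonine residues of nuclear and cytosolic proteins. The induced knockout group (Ogt iKO) comprised 2 libraries of cells cultured with 4-hydroxytamoxifen (4-OHT) for 6 days, and the control group 2 libraries of the same genotype cultured without it. Both were grown on mitomycin-treated fibroblasts in medium with LIF and serum replacement. Viable cells were sorted with antibodies to CD90.2, given in the labels as the mark of the mESC, and CD326, given as the mark to leave out the feeders, and treated cells were also sorted for YFP. These roles are the reverse of the usual ones, and which cells the sort kept cannot be told from the labels. Epcam, which encodes CD326, was at 280 and 287 CPM in Ogt iKO and at 347 and 307 CPM in control, and Thy1, which encodes CD90, at 25.5 and 8.89 CPM and at 15.6 CPM in both controls. Treatment, YFP sorting and loss of Ogt cannot be told apart here, since no group had 4-OHT with an intact Ogt. The recombinase and its promoter are not given in the sources used here, nor is it said whether replicates were separate cultures, so that p-values measure the spread between these libraries, which may be technical.

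In mammalian DNA, methyl groups are carried mostly by cytosines of CpG sites. DNMT3A and DNMT3B place methyl groups on unmethylated sites (de novo methylation), helped by DNMT3L, a relative without catalytic activity. DNMT1 copies the pattern to the new strand after replication (maintenance), guided by UHRF1, which binds hemimethylated CpG and ubiquitinates histone H3. USP7 removes ubiquitin and stabilises both, DPPA3 (also called STELLA or PGC7) binds UHRF1 and keeps it from chromatin, and ZFP57 recruits TRIM28 to methylated imprinting control regions.

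Depth was similar throughout, with 14668489 to 16504204 counts per library. Levels are given as CPM, the counts of a gene relative to the library total after scaling by trimmed means (TMM). A gene without counts could have a level as high as that of 3 counts. Relative to library totals only, without TMM scaling, this floor was 0.182 to 0.205 CPM. None of the 9 genes came near that floor. Ogt, the targeted gene, stood at 25.5 and 25.1 CPM in the Ogt iKO libraries and at 191 and 203 CPM in the controls. Of 16 stem cell markers 14 were lower and 1 higher in Ogt iKO, and their summed level was 3677 and 4128 CPM against 6404 and 6394 CPM in control. The 24 fibroblast markers, none of which was at 0, summed to 4277 CPM in Ogt iKO replicate 1, against 1605 CPM in replicate 2 and 1672 and 1849 CPM in the controls. That library stands apart in these markers, and values without it are given further on. In bulk RNA, fewer cells with a transcript and less of it per cell cannot be told apart.

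Of the 9 genes 2 were higher in Ogt iKO (Dnmt3l and Dppa3), 6 were lower (Dnmt3a, Uhrf1, Dnmt3b, Zfp57, Dnmt1 and Usp7) and Uhrf2 did not pass the threshold, an adjusted p under 0.05 (edgeR, quasi-likelihood fit, Benjamini-Hochberg over all tested genes). Calls were common in this comparison: 33.2% of all tested genes were higher and 32.0% were lower, 4827 and 4651 genes. With counts scaled by library totals only, 6116 were higher and 3282 lower, so the balance of directions, here and in the lists, depends on the scaling. The values of the 2 groups did not overlap for 8 of the 9 genes, Uhrf2 being the exception, and the same was true of 83.2% of all tested genes. The median log2 fold change of the 9 genes was -0.33, beside 0.02 over all tested genes. The change of Dnmt3l exceeded that of 86.0% of all tested genes in absolute size, that of Dnmt3a 77.4%, Uhrf1 75.1%, Dppa3 70.3% and Dnmt3b 67.1%. Zfp57 lay at 59.2%, Dnmt1 at 36.1% and Usp7 at 30.4%, and Uhrf2 changed less than nearly all genes, at 2.20%.

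**Figure D1:**
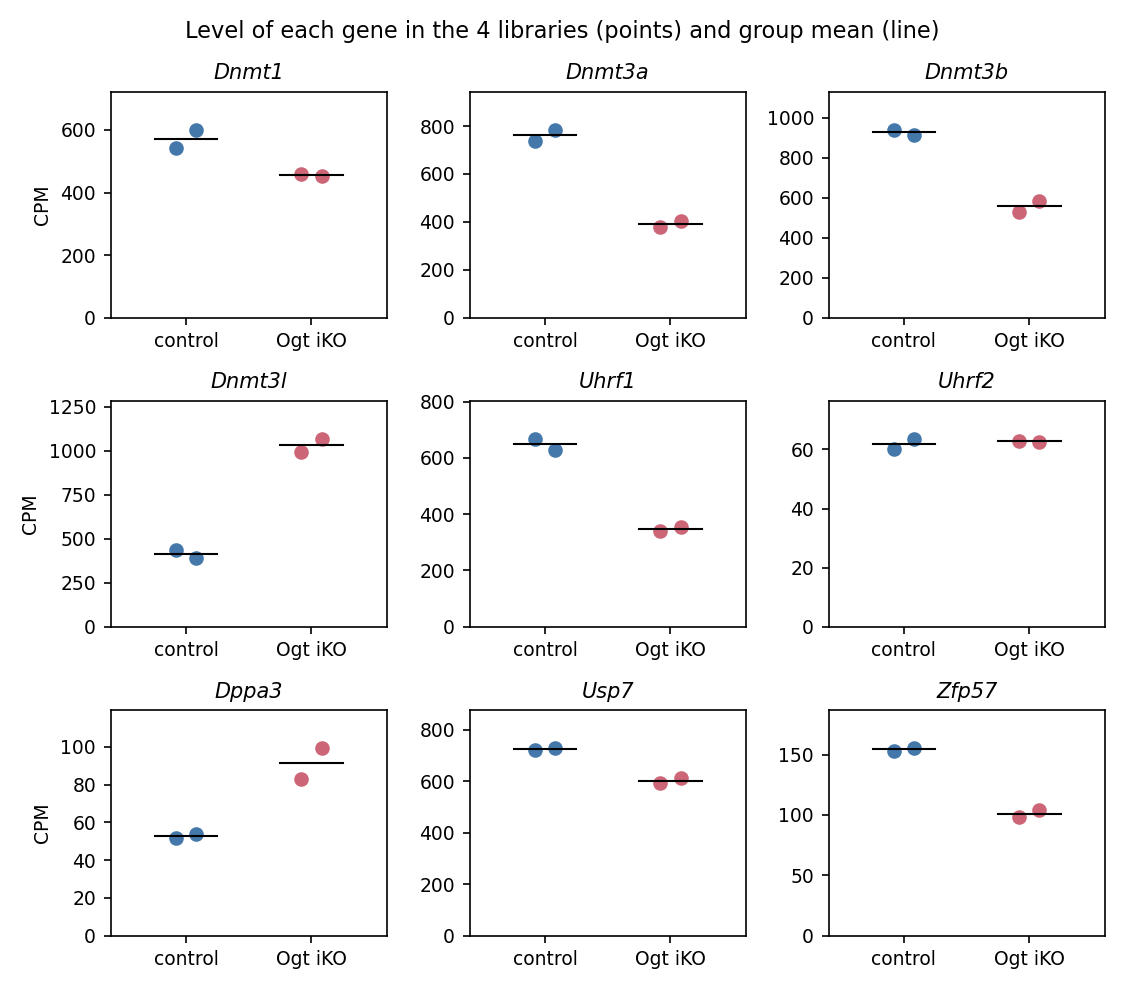
Level of each of the 9 genes in CPM (vertical axis, from 0) in the control (blue) and Ogt iKO (red) groups, with 1 point per library and a line at the group mean of 2 libraries. Dnmt3l and Dppa3 lie above the controls in both Ogt iKO libraries, Uhrf2 overlaps, and the other 6 lie below.

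The de novo enzymes fell and their cofactor rose. Dnmt3a (chr12:3806007-3914443, plus strand, GRCm38, as for all positions given) was at 377 and 404 CPM in Ogt iKO and at 739 and 785 CPM in control. Both treated libraries were thus near the midpoint between 0 and the control level, at 51.3% of it, and the groups were far apart relative to their spread. The log2 fold change of Dnmt3a was -0.96 (SE 0.0633, 95% interval -1.11 to -0.82, adjusted p 6.57e-06 in edgeR). The gene has starts some distance apart, an upstream one and an internal one that yields the shorter DNMT3A2, known as the main form in mESC. The counts are per gene and do not separate the isoforms.

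Dnmt3b (chr2:153649450-153687730, plus strand) had the highest level per kb of merged exon in control among the 9 genes. It stood at 529 and 584 CPM in Ogt iKO against 940 and 912 CPM in control. It was lower in both treated libraries than in both controls, at 60.1% of the control mean. This was a log2 fold change of -0.73 for Dnmt3b (SE 0.0654, 95% interval -0.88 to -0.59, adjusted p 2.84e-05 in edgeR). Its transcripts shared 9.81% of their 50-base stretches with 1 other annotated gene, Dnmt3c, a rodent copy of Dnmt3b known from male germ cells. Dnmt3c was not analysed here, and how reads matching both were counted is not given in the sources used here.

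Dnmt3l (chr10:78041947-78063622, plus strand) was at 996 and 1069 CPM in Ogt iKO and at 438 and 392 CPM in control. Both treated values were far above both controls, and Dnmt3l had more counts than any of the other 8 genes in each treated library. Its mean was 248.6% of control, and the log2 fold change was 1.31 (SE 0.0718, 95% interval 1.15 to 1.48, adjusted p 3.02e-06 in edgeR). Of its exon length, 2.24% lies under exons of Aire on the opposite strand.

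Because the gene that rose and its family members that fell were read in the same libraries, their ratio needs no scaling between libraries. Levels per kb of exon (all annotated exons of a gene merged) were used so that genes could be compared. Dnmt3l transcripts were 14.7 times those of Dnmt3a in both Ogt iKO libraries, 14.71 and 14.72, against 3.30 and 2.78 times in the controls. Relative to Dnmt3b they were 3.22 and 3.13 times in Ogt iKO and 0.796 and 0.735 times in control. By this length Dnmt3b led Dnmt3l in both controls and trailed it in both treated libraries, but divided by the longest coding transcript Dnmt3l led in control as well, so the order depends on the length and the change of the ratio does not. On the log2 scale the ratio of Dnmt3l to Dnmt3a differed by 2.28, a 4.86-fold change, and that to Dnmt3b by 2.05, a 4.15-fold change. An exact two-sided permutation test over the libraries gave p = 0.333 for each, the smallest that 2 libraries against 2 allow. As a share of the summed per-kb level of Dnmt3a, Dnmt3b and Dnmt3l, the Dnmt3l part was 39.1% and 36.8% in control and 72.5% and 72.1% in Ogt iKO. Dnmt3a made up 11.8% and 13.2% in control and 4.93% and 4.89% in Ogt iKO, and Dnmt3b went from 49.1% and 50.01% to 22.5% and 23.0%.

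**Figure D2:**
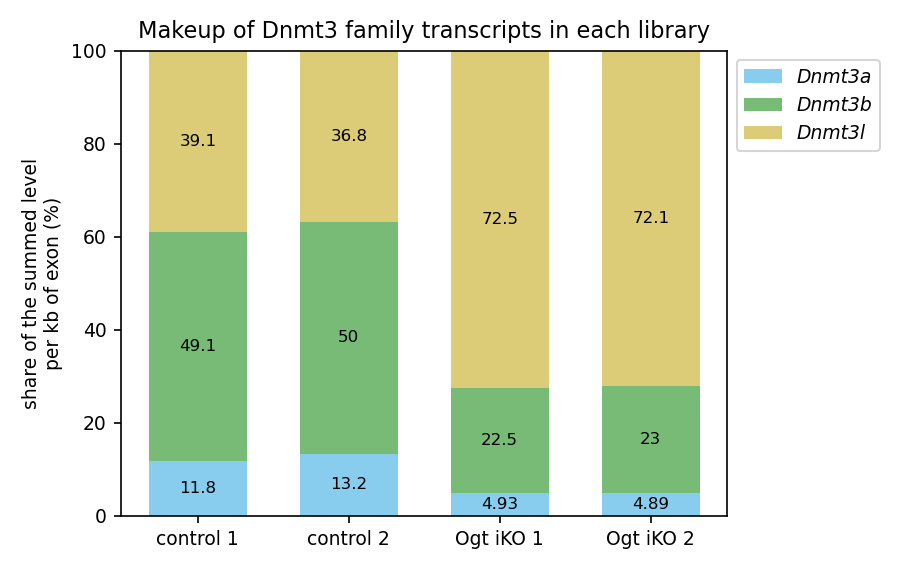
Stacked bars of the shares (percent, vertical axis from 0 to 100) of Dnmt3a, Dnmt3b and Dnmt3l in their summed level per kb of exon, 1 bar per library. Dnmt3l takes 36.8% to 39.1% in the controls and 72.1% to 72.5% in Ogt iKO.

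Promoters of the 9 genes ranged widely in CpG content, the substrate of these enzymes. RefSeq windows of 300 bases, from 250 before to 50 after an annotated start (GRCm38), were matched for 8 of the 9 genes, 17 windows in all. Over 32841 such windows of all genes the median was 7 CpG. The single Dnmt3b window held 30, more than 88.3% of all windows, and the 3 of Dnmt3a held 46, 47 and, at the internal start, 18. The 3 windows of Dnmt3l held 6, 4 and 3, each below the median. Among genes that fell, the windows of Zfp57 held 6 and 4, below the median, and, at the second listed start, 9, above it. Those of Dnmt1 held 2, 12 and 33, from the first listed start to the third. Which start of a gene was in use cannot be told from counts per gene. No DNA methylation was measured in these libraries, so the sequences show where CpG sites lie and not whether they carried methyl groups. The 250 bases before the Dnmt3b start (chr2:153649199-153649448, plus strand, 21 CpG) and before the second listed start of Dnmt3l (chr10:78049592-78049841, plus strand, 4 CpG), the latter being the Dnmt3l window with the most CpG of those whose printed part holds no annotated exon, are shown from 5′ to 3′ with each CpG in capitals.
Dnmt3b: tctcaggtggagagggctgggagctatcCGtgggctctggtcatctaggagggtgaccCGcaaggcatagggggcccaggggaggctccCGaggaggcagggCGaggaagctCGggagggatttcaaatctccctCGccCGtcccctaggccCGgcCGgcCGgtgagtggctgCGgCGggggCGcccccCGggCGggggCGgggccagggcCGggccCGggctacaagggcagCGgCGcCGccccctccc
Dnmt3l: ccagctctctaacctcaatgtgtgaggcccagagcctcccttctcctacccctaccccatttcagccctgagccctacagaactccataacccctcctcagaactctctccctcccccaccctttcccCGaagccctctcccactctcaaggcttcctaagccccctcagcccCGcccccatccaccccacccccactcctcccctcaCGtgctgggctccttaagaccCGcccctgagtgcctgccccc

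Among the maintenance genes the reader Uhrf1 fell further than the enzyme. Uhrf1 (chr17:56303321-56323486, plus strand) was at 339 and 353 CPM in Ogt iKO and at 668 and 628 CPM in control. The treated libraries reached 53.4% of the control mean and differed little from each other. For Uhrf1 the log2 fold change was -0.90 (SE 0.0599, 95% interval -1.04 to -0.77, adjusted p 6.70e-06 in edgeR). Of its 50-base stretches 15.4% also occur in 2 other annotated genes, Gm15953 and Gm5648, and reads from these stretches are uncertain.

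Dnmt1 (chr9:20907209-20959888, minus strand) was at 458 and 454 CPM in Ogt iKO and at 542 and 601 CPM in control. The groups did not overlap, but the gap was small, and the controls differed from each other by more than the treated libraries did. The log2 fold change of Dnmt1 was -0.33 (SE 0.0649, 95% interval -0.47 to -0.18, adjusted p 0.00227 in edgeR). Scaled by library totals only, it was -0.16 and did not pass the threshold (adjusted p 0.0643, edgeR). That scaling moved the median of all tested genes from 0.02 to 0.19, and Dnmt1 lay below the median gene under both. The ratio of Uhrf1 to Dnmt1 transcripts per kb was 1.28 and 1.35 in Ogt iKO, against 2.14 and 1.81 in control, a log2 difference of -0.58 (exact permutation p = 0.333, the smallest possible). Both treated libraries had fewer Uhrf1 transcripts per Dnmt1 transcript than either control.

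Uhrf2 (chr19:30030513-30093722, plus strand), a paralog of Uhrf1 that does not replace it in maintenance, was at 63.0 and 62.4 CPM in Ogt iKO and at 60.1 and 63.7 CPM in control. The treated values lay between the controls. Uhrf2 had a log2 fold change of 0.02 (SE 0.0727, 95% interval -0.15 to 0.19, adjusted p 0.827 in edgeR). With library totals only it was 0.19 and just passed the threshold (adjusted p 0.0486, edgeR), the scaling that moved the median gene by a similar amount. As Uhrf1 fell, the ratio of Uhrf2 to Uhrf1 per kb went from 0.0446 and 0.0502 in control to 0.0920 and 0.0877 in Ogt iKO (log2 difference 0.92, exact permutation p = 0.333). Uhrf2 remained the lowest of the 9 genes per length, at 7.21 CPM per kb in control and 7.30 in Ogt iKO.

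Usp7 (chr16:8689595-8792308, minus strand), the deubiquitinase, was at 592 and 613 CPM in Ogt iKO and at 722 and 731 CPM in control. It had the smallest change among the called genes, to 83.0% of control, with groups that did not overlap. For Usp7 the log2 fold change was -0.27 (SE 0.0555, 95% interval -0.40 to -0.14, adjusted p 0.00276 in edgeR). Under library totals only it was -0.10, with an adjusted p of 0.128 (edgeR). A test against a fold of 1.2 (edgeR's glmTreat) did not call Dnmt1 or Usp7, with adjusted p values of 0.118 and 0.339, and called the other 6.

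**Figure D3:**
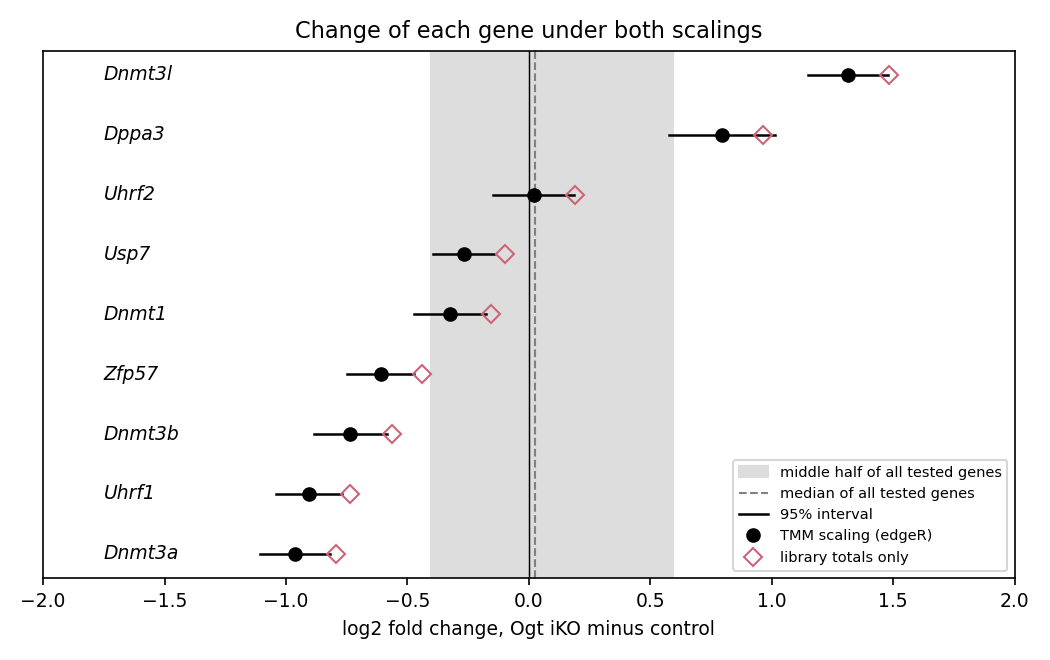
Log2 fold change (Ogt iKO minus control, horizontal axis) of the 9 genes with TMM scaling (filled circles, with 95% intervals) and with library totals only (open diamonds), over the range between the quartiles of all tested genes (grey, -0.40 to 0.59) and their median (dashed). Library totals move every gene to the right by about the same amount, which takes Usp7 to -0.10 and Dnmt1 to -0.16.

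Dppa3, whose product blocks UHRF1, rose while Uhrf1 fell. Dppa3 (chr6:122626410-122630272, plus strand) was at 82.9 and 99.6 CPM in Ogt iKO and at 51.5 and 53.7 CPM in control. Both treated libraries were above both controls, and the treated libraries differed more from each other, relative to their mean, than for any other of the 9 genes. The log2 fold change of Dppa3 was 0.79 (SE 0.0954, 95% interval 0.58 to 1.01, adjusted p 0.000136 in edgeR), and it was 0.63 without Ogt iKO replicate 2 and 0.93 without replicate 1. Of its 50-base stretches 16.5% occur in 3 other annotated genes, among them Dppa3-ps, which makes that part of its count uncertain. Transcripts of Dppa3 per transcript of Uhrf1, both per kb, went from 0.368 and 0.408 in control to 1.17 and 1.35 in Ogt iKO. Uhrf1 thus outnumbered Dppa3 in both controls and Dppa3 outnumbered Uhrf1 in both treated libraries, a 3.23-fold shift of the ratio (log2 difference 1.69, exact permutation p = 0.333, the smallest possible).

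Dppa3 lies in a cluster of genes active in pluripotent cells on chromosome 6. Of 8 tested genes of the cluster and its flank 4 were higher, Dppa3 itself among them, and 3 were lower. Nanog, which encodes a pluripotency factor and starts 77.2 kb beyond the end of Dppa3, went from 240 and 245 CPM to 84.4 and 91.0 CPM (log2 fold change -1.47, adjusted p 9.96e-07 in edgeR). Slc2a3, a glucose transporter gene 97.5 kb away, had a log2 fold change of -0.93 (adjusted p 1.07e-05 in edgeR). Of the other neighbours, named after their values were seen, Gdf3 was lower (-0.38), while Apobec1 (0.36), Foxj2 (0.87) and C3ar1 (1.87) were higher, so the neighbours moved both ways.

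Zfp57 (chr17:37001163-37010635, plus strand), the imprint-protecting zinc finger gene, was at 98.0 and 104 CPM in Ogt iKO and at 153 and 156 CPM in control. The replicates of each group were close, and the treated level was 65.5% of control. Zfp57 had a log2 fold change of -0.61 (SE 0.0605, 95% interval -0.75 to -0.47, adjusted p 4.95e-05 in edgeR). No 50-base stretch of it occurs in another annotated gene. Among 14 partners and other imprint protectors 10 were lower and 1 was higher (0 higher without control replicate 1), with a median log2 fold change of -0.40. Naa10, an acetyltransferase gene, had a log2 fold change of -1.16, and Cbx1 (an HP1 protein) -0.65. Trim28, the corepressor that ZFP57 recruits, went from 2528 and 2453 CPM to 1562 and 1659 CPM (log2 fold change -0.63, adjusted p 4.16e-05 in edgeR), so that it and Zfp57 fell by similar amounts. Of 30 tested imprinted genes at control regions known to bind ZFP57, 15 were higher and 5 were lower, with a median of 0.28. That median was 0.12 without Ogt iKO replicate 1 (12 higher, 7 lower), 0.56 without replicate 2, 0.68 without control replicate 2 and 0.72 with no filter on low counts. Gnas was higher by 0.91 and Peg10 by 1.30 on the log2 scale, and Copg2 was lower (-1.07).

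Set in order of level per kb of exon, the 9 genes in control ran from Dnmt3b (181 CPM per kb) through Uhrf1 (152), Dnmt3l (139), Usp7 (93.5), Dnmt1 (77.5), Dppa3 (58.9), Dnmt3a (45.8) and Zfp57 (40.8) to Uhrf2, and no neighbours in that order overlapped between their 2 libraries. In Ogt iKO Dnmt3l led at 346 CPM per kb, ahead of Dnmt3b (109) and Dppa3 (102), which overlapped, and then Uhrf1 (81.3), Usp7 (77.6), Dnmt1 (61.8), Zfp57 (26.7) and Dnmt3a (23.5). Dppa3 moved from the sixth place to the third, and Uhrf1 from the second to the fourth. The 3 catalytic genes summed to 302 and 307 CPM per kb in control and to 188 and 200 CPM per kb in Ogt iKO. These levels depend on the length used. Divided by the longest coding transcript in place of merged exons, a choice made after seeing the data, Dnmt3l came first in control too (228 CPM per kb, beside 215 for Dnmt3b), and Dnmt3a stood above Dppa3 and Zfp57 at 78.7. Ratios between groups are free of this choice.

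**Figure D4:**
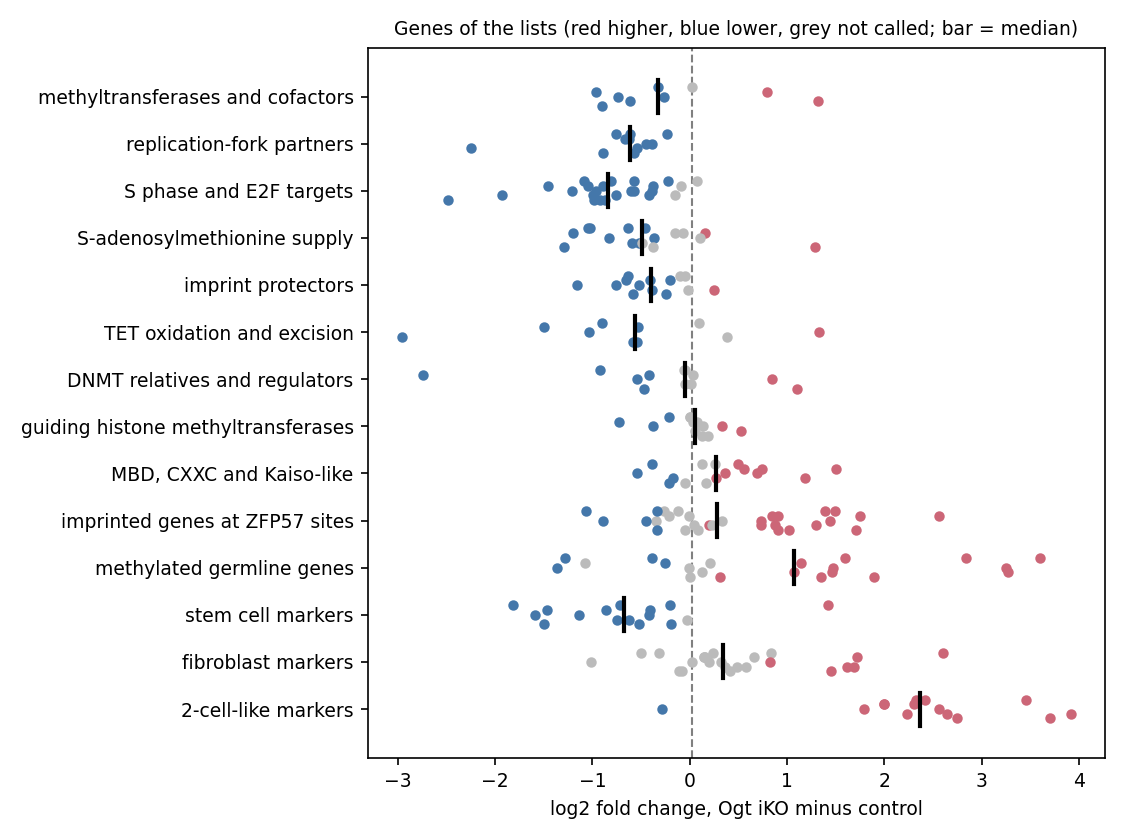
Log2 fold change (Ogt iKO minus control, horizontal axis) of the tested genes of every list except the neighbours of Dppa3, 1 point per gene, coloured by call, with a bar at each list's median and a dashed line at the median of all tested genes. The replication-fork partners lie wholly to the left (median -0.61), and the 9 genes are spread from -0.96 to 1.31.

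Other genes of the pathway were taken from lists and are described by counts, with no test of a list, against the shares of all tested genes given above. Partners of maintenance at the replication fork, such as chromatin remodellers, clamp and ligase, were all lower: 11 of 11, with a median log2 fold change of -0.61. With library totals only, or against a fold of 1.2, 10 were lower. Pclaf, a clamp-binding factor that recruits DNMT1 when ubiquitinated, went from 124 and 116 CPM to 25.8 and 24.7 CPM (log2 fold change -2.25, adjusted p 4.91e-07 in edgeR). Pcna, the clamp itself, had a log2 fold change of -0.89 and Cdca7, which activates the remodeller HELLS, -0.67. Uhrf1 is itself known as a gene of the G1 to S transition. Of 24 genes of S phase and E2F targets 21 were lower and 0 higher, with a median of -0.84, next to -0.90 for Uhrf1. The 2 lists share genes, Pcna among them. Ccne1 (cyclin E1) had a log2 fold change of -2.48, Chaf1b -1.93 and Mcm3 -1.45. The part of cell cycle in the fall of Uhrf1 and Dnmt1 was not tested.

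Motifs resembling E2F sites were looked for in the promoter windows, on both strands, as TTTCCCGC, TTTGGCGC, TTTCGCGC and TTTGCCGC. They occur in 2.27% of all 32841 windows, and in 2 of the 17 windows of these genes. Both of these windows held 33 CpG, more than 91.4% of all windows. Each motif holds a CpG, so the share over all windows is not a like background. The second listed start of Uhrf1 has TTTCGCGC 185 bases upstream, and the third of Dnmt1 has the reverse complement of the same letters, GCGCGAAA, 219 bases upstream and TTTGGCGC from base 34 after the start. The windows of Dnmt3a, Dnmt3b, Dnmt3l, Uhrf2, Usp7 and Zfp57 held none of these letters, which says nothing of the factors themselves. The Uhrf1 stretch (chr17:56304063-56304312, plus strand, 30 CpG) is shown because it holds the match in the gene that fell most among the maintenance genes, with the match in capitals.
Uhrf1: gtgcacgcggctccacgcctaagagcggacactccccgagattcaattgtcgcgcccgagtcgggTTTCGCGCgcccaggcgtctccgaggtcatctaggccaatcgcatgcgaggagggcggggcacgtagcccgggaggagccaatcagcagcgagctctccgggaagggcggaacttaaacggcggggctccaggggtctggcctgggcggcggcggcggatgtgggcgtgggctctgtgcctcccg

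Most genes of methyl donor supply were lower. Of 17 genes of methionine, folate and S-adenosylmethionine metabolism 10 were lower and 2 higher, with a median log2 fold change of -0.49. With 1 library left out that median was -0.54 to -0.43. Only 1 gene was higher with DESeq2, with no filter, with the replicate block or against a fold of 1.2, and 3 were with library totals only. Shmt2 and Mthfd2, which feed one-carbon units in mitochondria, had log2 fold changes of -1.19 and -1.29, and Ahcyl2, related to the hydrolase of S-adenosylhomocysteine, 1.29. Histone methyltransferases whose marks guide DNA methylation depended on the scaling, with 2 higher and 3 lower of 13 and a median of 0.05, but 9 higher and 1 lower and a median of 0.22 with library totals only. Their median was 0.08 without Ogt iKO replicate 1 and -0.018 without replicate 2. Prmt5 had a log2 fold change of -0.73, Nsd3 of 0.53 and Nsd2 of 0.33. Among 16 genes of the protein families that hold readers of methylated or unmethylated CpG (MBD, CXXC and Kaiso-like), not all of whose members bind it, 8 were higher and 4 lower, with a median of 0.27, and 11 were higher and 1 lower with library totals only. Without Ogt iKO replicate 1 or without control replicate 1, 6 were higher and 2 lower. Those with the smallest adjusted p were Mbd5 (1.19), whose MBD domain is not known to bind methylated DNA, Mbd2 (0.69) and Mbd1 (0.56).

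Relatives and known regulators of the enzymes were mixed, with 2 higher and 5 lower of 12. Their median log2 fold change was -0.05, and it was -0.13 without Ogt iKO replicate 1, -0.09 without replicate 2 and 0.12 with library totals only. Prdm14, which encodes a repressor of Dnmt3a, Dnmt3b and Dnmt3l in naive mESC, was at 11.1 CPM in both controls and at 1.52 and 1.80 CPM in Ogt iKO (log2 fold change -2.74, adjusted p 1.06e-05 in edgeR). Of its known targets Dnmt3l was higher and Dnmt3a and Dnmt3b were lower in the same libraries. Setd7, which encodes a methyltransferase of DNMT1 that promotes its turnover, rose by 0.85, and Dcaf5, an adaptor for the removal of methylated DNMT1, by 1.11 on the log2 scale (adjusted p 1.92e-05 and 5.25e-06 in edgeR). On the opposing side of the pathway, the list of TET oxidation and base excision also holds Ogt, whose product binds TET proteins. Of its 10 tested genes 7 were lower, the deleted Ogt among them, and 1 was higher, Tet3 (1.33), while Tet2 had a log2 fold change of -1.50. Tdg, also listed, did not pass the filter on low counts. It was at 0 and 0.0644 CPM in Ogt iKO and at 0 and 0.0652 CPM in control, so no change could be read for it.

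Germline genes listed for promoters known to carry methylation in mESC were read beside the enzymes. Their methylation was not measured here. Of 21 such genes 12 were higher and 4 lower (2 lower without control replicate 1), with a median log2 fold change of 1.07. Dazl, a regulator of germ cell translation, went from 44.6 and 36.9 CPM to 324 and 259 CPM. Slc25a31 rose by 3.27 and Taf7l by 3.25 on the log2 scale. Of the 4 that were lower, Tex11, at 55.9 and 46.8 CPM in control, fell most (log2 fold change -1.36). Other cell states moved in the same libraries: of the stem cell markers, Sox2 had a log2 fold change of -1.59 and Klf4 of -1.82, and 13 of 14 tested markers of the 2-cell-like state were higher, among them Zscan4d (2.30) and Usp17le (2.23). Gm6763, another marker of that state, had 0 counts in all 4 libraries. The part of these shifts in the values of the 9 genes was not tested. Among fibroblast markers 6 of 24 were higher and 0 lower, those with the smallest adjusted p being Tagln (2.60), Acta2 (1.72) and Twist1 (1.45). Without Ogt iKO replicate 1, 6 were higher and 16 lower and the median went from 0.34 to -0.75, and without replicate 2, 22 were higher. By contrast, all 8 calls among the 9 genes were also made without replicate 1, with log2 fold changes of -0.91 for Dnmt3a, -0.66 for Dnmt3b, 1.37 for Dnmt3l and -0.87 for Uhrf1.

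Genes of like pattern were found by the Euclidean distance of log2 CPM, centred for each gene, over the 4 libraries, among the 6319 genes whose log2 CPM averaged 5 or more. The nearest to Dnmt3l were Pid1 (distance 0.0415) and Dmrt1 (0.0422), and 38 genes lay within 0.2. For Dnmt3a they were Sp2 (0.0147) and Sars2 (0.0224), with 283 genes within 0.2. Uhrf1 was nearest to Rpl13 (0.0204) and Slbp (0.0205), with 403 genes within that distance, and Dnmt3b to Ptges3 (0.0127) and Haus1 (0.0160), with 701. The pattern of Dnmt3l was therefore shared by fewer genes than those of the 3 that fell. With 4 libraries in 2 groups, such likeness is mostly likeness of fold change.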

How the data were processed

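Read counts per gene symbol were used as deposited, 1 table per library. Per the submitters' processing notes, the authors used STAR, Picard and the mm10 build. The annotation, the strand setting and the treatment of reads with several matches are not given in the sources used here. All rows named a gene. The 2 Ogt iKO libraries were compared with the 2 controls in edgeR 4.0.16 (R 4.3.3, TMM scaling, filterByExpr, glmQLFit and glmQLFTest, Benjamini-Hochberg adjustment over 14525 genes, threshold 0.05). The code was checked on simulated data in which most genes were unchanged, which does not test the calls in these data. Positions, exon lengths and shared 50-base stretches came from GENCODE vM21, and promoters from RefSeq. The genes named are Ogt, the 9 genes, up to 3 genes with the smallest adjusted p of each list, markers at 0, and the 2 nearest in pattern to each of the 4 genes with the smallest adjusted p. Neighbours of Dppa3, genes that share sequence or exons with one of the 9, the genes of the sorted surface markers, Tdg and Tex11 were named outside that rule, after values were seen. A gene that the rule names is not reported here. The members and lists were chosen with earlier results of these data known. Alternatives included DESeq2 1.42.0, other scalings and filters, and leaving out each library. The comparison of protein sequences that had been planned was not run.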

Additional observations from a re-analysis of the deposited data

How the results depend on the processing

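Of the 9 genes, Dnmt3a, Dnmt3b, Dnmt3l, Uhrf1, Dppa3 and Zfp57 kept their direction and call in all 14 alternatives run (DESeq2, other scalings, filters and thresholds, a robust spread, the replicate block and each library left out). Dnmt1 and Usp7 lost their call with library totals only and against a fold of 1.2. Uhrf2 was called with library totals only and had log2 fold changes from -0.029 (without control replicate 1) to 0.051 (without control replicate 2) with 1 library left out. The median of the regulators of the enzymes was 0.12 with library totals only, that of the histone methyltransferases -0.018 without Ogt iKO replicate 2 and 0.079 without replicate 1, and that of the fibroblast markers -0.75 without Ogt iKO replicate 1 and 0.89 without replicate 2. The cause was not tested. With library totals only, 3 genes of the TET list were higher in place of 1, 2 of the imprint protectors in place of 1, and 3 imprinted and 2 germline genes were lower in place of 5 and 4. With the replicate number as a block, 4922 genes were higher and 4719 lower, with 2 and 6 of the 9 genes, and the median of the fibroblast markers was 0.15. Over all tested genes, the difference between replicates 1 and 2 in Ogt iKO had a correlation of 0.08 with that in control, so the numbers were not taken as pairing. With 2 libraries a group, the exact permutation test of a within-library ratio cannot give p below 0.333. When a library is left out, the lone one is assumed to vary like the other group.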
